A study of Arabidopsis thaliana with 6 samples.

Results

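The general phenylpropanoid and lignin enzymes examined here are the products of 10 genes, picked by gene identifier out of the 18368 genes of the deposited table that could be used. They cover the entry steps shared by all phenylpropanoids, namely phenylalanine ammonia-lyase (*PAL1*, *PAL2* and *PAL4*), cinnamate 4-hydroxylase (*C4H*) and 4-coumarate:CoA ligase (*4CL1*, *4CL2* and *4CL3*), together with enzymes of the branch to lignin (*COMT1*, *CCOAOMT1* and *CCR1*). All 10 members were present in the table and all 10 passed the filter on low values, a mean normalized count of at least 10 over the 6 libraries.

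The study examined proteins whose stability depends on oxygen, and used RNA sequencing to ask which transcripts change in *Arabidopsis thaliana* seedlings during long-term cold. All seedlings were wild type of the ecotype Col-0, and no transgene or mutation was present in either group. Non-vernalized seedlings (0v) had 11 days at 22 °C. Vernalized seedlings (4v) had 7 days at 22 °C followed by a cold period of 28 days at 5 °C. Each group had 3 biological replicates, grown on separate plates. The groups were therefore 11 and 35 days old when sampled, so age and temperature cannot be told apart. RNA came from whole seedlings, so fewer cells of a type and less RNA per cell cannot be told apart either.

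Phenylpropanoids are plant aromatic compounds made from the amino acid phenylalanine. PAL removes the amino group to give cinnamic acid, C4H adds a hydroxyl group to give *p*-coumaric acid, and 4CL links this acid to coenzyme A. The product, *p*-coumaroyl-CoA, is a branch point. Chalcone synthase takes it to flavonoids and anthocyanins, whereas transferases, methyltransferases and reductases take it to monolignols, the alcohols that are polymerized to lignin in the walls of xylem and of the root endodermis. Sinapate esters, which absorb ultraviolet light, and coumarins such as scopoletin leave the same route. Many of the enzyme genes are activated by MYB transcription factors that bind AC elements, short sequences rich in A and C.

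The sequence before the annotated gene start differed among the members. In the 250 bases before the gene start, AC elements searched for as exact matches on both strands (AC-I, ACCTACC; AC-II, ACCAACC; AC-III, ACCTAAC) were found in 4 of the 10 members, against 6.1% of 18306 genes with the same window. The windows of these 4 genes are shown because AC elements are known binding sites of the MYB activators of lignin genes. They lie at chr3:7457405-7457654 (minus strand) for *4CL2*, chr1:24171636-24171885 (minus strand) for *4CL3*, chr4:16310159-16310408 (plus strand) for *CCOAOMT1* and chr1:5478353-5478602 (plus strand) for *CCR1* in the RefSeq assembly TAIR10.1, and run 5′ to 3′ on the strand of the gene with the AC elements in capitals.
4CL2: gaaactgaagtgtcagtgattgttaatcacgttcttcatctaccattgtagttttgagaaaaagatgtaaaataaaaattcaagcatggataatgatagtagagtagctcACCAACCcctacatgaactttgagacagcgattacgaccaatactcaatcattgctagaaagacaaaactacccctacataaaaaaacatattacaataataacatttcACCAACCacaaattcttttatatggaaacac
4CL3: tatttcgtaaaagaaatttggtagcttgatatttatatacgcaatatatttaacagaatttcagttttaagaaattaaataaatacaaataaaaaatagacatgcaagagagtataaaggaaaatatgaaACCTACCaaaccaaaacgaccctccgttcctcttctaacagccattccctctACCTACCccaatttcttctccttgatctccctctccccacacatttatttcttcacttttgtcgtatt
CCOAOMT1: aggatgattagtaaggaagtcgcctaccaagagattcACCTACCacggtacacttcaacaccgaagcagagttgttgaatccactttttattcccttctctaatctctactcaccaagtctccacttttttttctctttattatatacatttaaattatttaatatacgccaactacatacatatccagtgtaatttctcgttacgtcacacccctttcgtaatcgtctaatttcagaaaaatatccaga
CCR1: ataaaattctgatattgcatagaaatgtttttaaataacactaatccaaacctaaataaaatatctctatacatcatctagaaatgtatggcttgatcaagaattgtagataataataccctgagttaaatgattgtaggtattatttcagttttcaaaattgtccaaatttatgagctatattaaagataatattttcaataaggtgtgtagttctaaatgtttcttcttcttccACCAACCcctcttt

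Counted back from the base before the gene start as -1, *4CL2* held AC-II from -140 to -134 and again from -31 to -25. *4CL3* held AC-I from -120 to -114 and from -68 to -62. *CCOAOMT1* had a single AC-I from -213 to -207, and *CCR1* a single AC-II from -14 to -8. No match overlapped another. Over all genes, AC-I was present in 1.2% of windows, AC-II in 2.77% and AC-III in 2.32%. *PAL4* held none of the AC elements but had a G-box (CACGTG, 7.41% of windows) from -117 to -112 and the core of the cold-responsive C-repeat (CCGAC, 13.1% of windows) from -47 to -43. The other 5 members held no exact match to any of these motifs in this window.

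Values are normalized counts, that is, read counts divided by a size factor for each library. Total reads ranged from 1636687 to 23141488, a 14.1-fold range, with 0v replicate 3 and 4v replicate 2 sequenced far more deeply than the other 4 libraries. A single read was worth between 0.203 and 3.41 normalized counts. Among 16771 genes tested with limma, with Benjamini-Hochberg adjustment over all of them, the adjusted p was under 0.05 for 1083 with higher values in 4v (6.46%) and for 1172 with lower values (6.99%).

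None of the 10 phenylpropanoid members passed this test in either direction, whereas 13.4% of all genes did. At an unadjusted p under 0.05 there were 3 members (*4CL2*, *4CL3* and *CCOAOMT1*), all with a higher mean in 4v, beside 32.0% of all genes. The mean was higher in 4v for 6 members and lower for 4, and the median log2 difference over the members was 0.47, beside 0.05 over all genes tested. The groups did not overlap for 5 members, all higher in 4v (*PAL1*, *PAL2*, *4CL2*, *4CL3* and *CCOAOMT1*), beside 20.5% of all genes, and no member was lower in 4v without overlap, beside 18.7%. On the reads recovered from the normalized counts, edgeR called none of the members, DESeq2 called *4CL2* (adjusted p = 0.0456) and *CCOAOMT1* (adjusted p = 0.0217), and limma-voom called *4CL2* (adjusted p = 0.0133), *4CL3* (adjusted p = 0.00403) and *CCOAOMT1* (adjusted p = 0.0440). Those tools called 5.64%, 6.62% and 14.9% of the genes they tested as higher in 4v. In limma, *4CL2* passed with the filter raised to a mean of 50 (adjusted p = 0.0447), where 8.32% of genes were higher. Whether these 3 members are counted as changed therefore depended on the test.

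**Figure D1:**
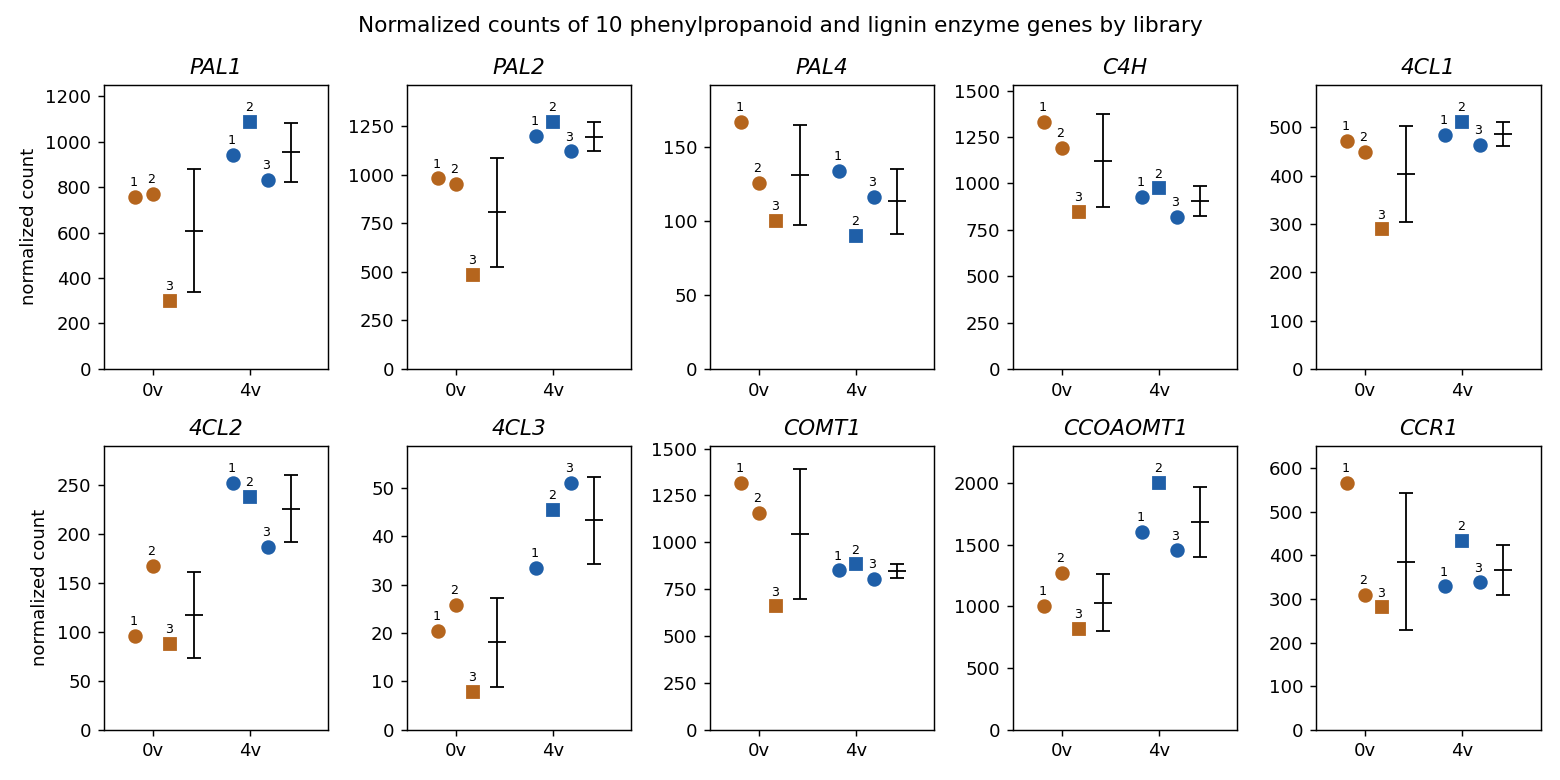
Normalized counts of the 10 members in each library (vertical axis, from 0), with 0v in orange and 4v in blue. Numbers are replicates, squares are the 2 deep libraries and circles the 4 shallow ones, and the bar beside each group is its mean with SD (n = 3). In every panel 0v replicate 3 is the lowest 0v library.

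PAL catalyses the step that commits phenylalanine to the pathway, and PAL1 and PAL2 are its main forms in *Arabidopsis*. *PAL1* (AT2G37040, chromosome 2, 15557367 to 15560755) had normalized counts of 758, 771 and 298 in 0v replicates 1 to 3, and of 941, 1087 and 832 in 4v replicates 1 to 3. The groups did not overlap, but 0v replicate 3 lay far below the other 0v libraries. The log2 difference, 4v minus 0v, was 0.76 ± 0.36 (SE, n = 3 per group), with a 95% interval from -0.10 to 1.61, and did not pass the test in limma (adjusted p = 0.199). *PAL2* (AT3G53260, chromosome 3, 19744018 to 19747114) showed the same order, with 980, 952 and 484 in 0v and 1197, 1270.3 and 1119 in 4v. Its log2 difference was 0.64 ± 0.27 (SE; limma adjusted p = 0.160). Without 0v replicate 3 the log2 differences of *PAL1* and *PAL2* fell to 0.31 and 0.30, so that a large part of both values rested on this library.

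*PAL4*, a minor form, did not follow them. *PAL4* (AT3G10340, chromosome 3, 3203988 to 3208135) had 167, 126 and 100.3 normalized counts in 0v and 134, 89.98 and 116 in 4v. The groups overlapped and the mean was lower in 4v, with a log2 difference of -0.19 ± 0.25 (SE; limma adjusted p = 0.633). The paralog *PAL3*, which was not among the members, overlapped too (51.2, 32.3 and 25.3 in 0v, and 33.5, 28.2 and 28.4 in 4v; limma adjusted p = 0.724).

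The ratio of 2 genes within a library hardly depends on the scaling between libraries. The log2 ratio of *PAL4* to *PAL1* was -2.09 ± 0.52 (SD, n = 3) in 0v and -3.04 ± 0.43 in 4v, a difference of -0.95. By replicate it was -2.15, -2.58 and -1.54 in 0v, and -2.78, -3.54 and -2.80 in 4v. The deep libraries, 0v replicate 3 and 4v replicate 2, were the extremes, and the shallow libraries of the groups lay closer together. An exact two-sided permutation test gave p = 0.1, the smallest that 3 libraries against 3 allow, or 0.133 after Benjamini-Hochberg adjustment over the 4 ratios compared. The log2 ratio of *PAL2* to *PAL1* differed by -0.12 (exact permutation p = 0.5). Per kilobase of transcript, *PAL2* supplied 51.2% ± 1.62 (SD, n = 3) of the normalized counts of the PAL family in 0v and 52.3% ± 1.03 in 4v. *PAL1* supplied 36.9% ± 4.22 in 0v and 40.9% ± 2.21 in 4v, and *PAL4* 9.27% ± 2.29 and 5.31% ± 1.26. Thus *PAL1* and *PAL2* together dominated the family in every library.

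C4H, a cytochrome P450, is encoded by a single gene in *Arabidopsis*. *C4H* (AT2G30490, chromosome 2, 12993625 to 12996012) had 1331, 1190.5 and 845 normalized counts in 0v and 926, 973 and 818 in 4v. Replicates 1 and 2 of 0v lay above every 4v library, and replicate 3 lay among them. The log2 difference was -0.29 ± 0.19 (SE; 95% interval from -0.74 to 0.17) and did not pass in limma (adjusted p = 0.349). Without 0v replicate 3 it was -0.48 (limma adjusted p = 0.0509), and without 0v replicate 1 it was -0.15 (limma adjusted p = 0.658).

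4CL activates *p*-coumaric acid with coenzyme A, and its isoforms are known to serve different branches, 4CL1 mainly lignin and 4CL3 mainly flavonoids. *4CL1* (AT1G51680, chromosome 1, 19158746 to 19161737) had 471, 448 and 289 normalized counts in 0v and 484, 511 and 463 in 4v. The groups overlapped, and the log2 difference was 0.30 ± 0.20 (SE; limma adjusted p = 0.353). It was 0.08 without 0v replicate 3 and 0.04 in the shallow libraries alone. The gene overlaps a gene on the opposite strand, as does *CCR1*, and reads from such pairs may not be told apart. *4CL2* (AT3G21240, chromosome 3, 7454269 to 7457404) had 95.6, 168 and 87.6 in 0v and 253, 238 and 187 in 4v. All 4v libraries lay above all 0v libraries. The log2 difference of 0.98 ± 0.27 (SE; 95% interval from 0.34 to 1.61; 1.97-fold) missed the threshold in limma (adjusted p = 0.0568). Leaving out 0v replicate 2, the highest 0v library, gave 1.26 (limma adjusted p = 0.0244), where 3.89% of all genes were higher in 4v, and leaving out each other library in turn gave values down to 0.80.

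*4CL3* (AT1G65060, chromosome 1, 24167202 to 24171635) was the least abundant member. Its normalized counts were 20.5, 25.8 and 7.89 in 0v and 33.5, 45.4 and 51.1 in 4v, and the groups did not overlap. These values rest on only 6, 8 and 30 reads in 0v and 11, 224 and 18 reads in 4v. The log2 difference of 1.19 ± 0.43 (SE; 95% interval from 0.17 to 2.20) had the largest size and the largest error of the members, and did not pass in limma (adjusted p = 0.111). Limma-voom gave 2.31 for the same gene, and the analysis without 0v replicate 3 gave 0.79.

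Within the 4CL family *4CL2* and *4CL3* stood higher relative to *4CL1* in 4v. The log2 ratio of *4CL2* to *4CL1* was -1.78 ± 0.44 (SD, n = 3) in 0v and -1.10 ± 0.18 in 4v, a difference of 0.68 that became 0.44 without 0v replicate 1 (exact permutation p = 0.2). That of *4CL3* to *4CL1* was -4.27 ± 0.35 in 0v and -3.39 ± 0.31 in 4v, a difference of 0.89. For both, the libraries of the groups did not overlap, and the exact permutation test gave its smallest possible p of 0.1 (0.133 after adjustment over the 4 ratios). Per kilobase, *4CL1* supplied 71.3% ± 2.72 (SD, n = 3) of the family in 0v and 60.8% ± 3.28 in 4v, and *4CL2* 22.1% ± 5.72 and 29.9% ± 2.40. The share of *4CL3* was 3.24% ± 1.07 in 0v and 5.85% ± 1.65 in 4v. *4CL5*, the neighbour of *4CL2* on chromosome 3, was not among the members and had 0 reads in 0v replicate 2 and 4v replicate 3, 12 reads in 0v replicate 1 and in 4v replicate 1, and 50 and 232 in the deeply sequenced libraries. Reads of close paralogs are divided between them by estimation, so the split within the 4CL and PAL families is uncertain.

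**Figure D2:**
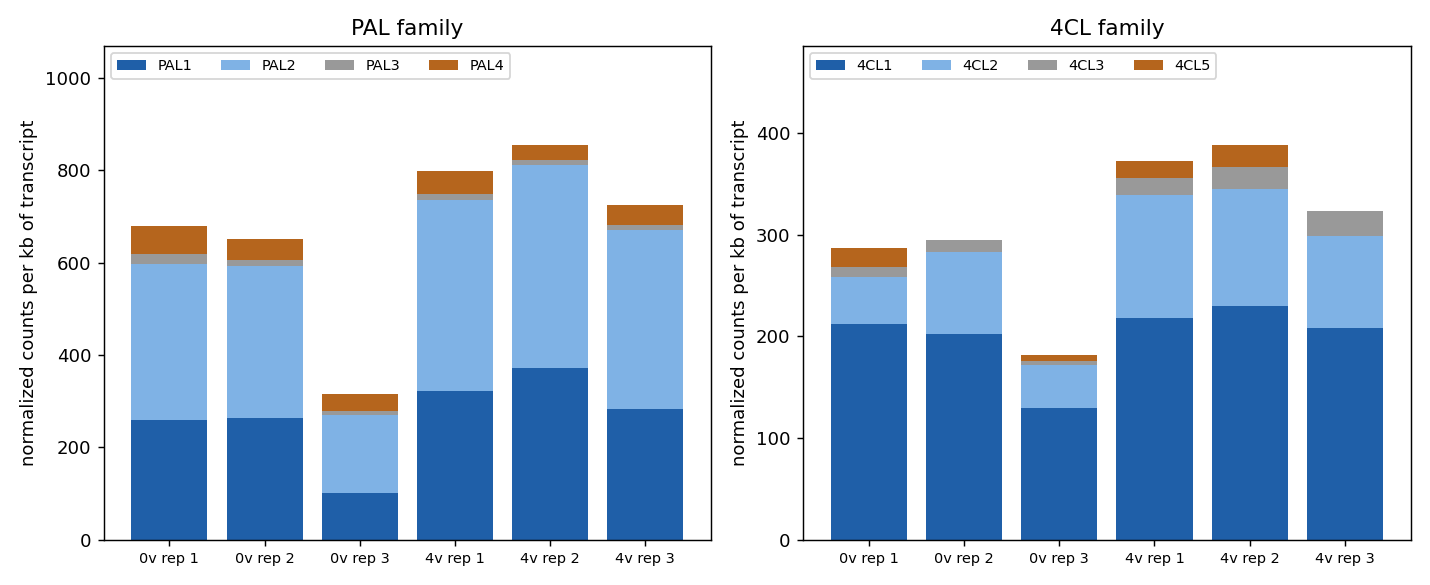
Normalized counts per kilobase of transcript (vertical axis) of the PAL genes (left) and 4CL genes (right), stacked by gene for each library. The stacks of 0v replicate 3 are the lowest of all 6 libraries, and *PAL1*, *PAL2* and *4CL1* make up most of their families throughout.

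CCOAOMT1 methylates caffeoyl-CoA to feruloyl-CoA and so leads to the guaiacyl and syringyl units of lignin. *CCOAOMT1* (AT4G34050, chromosome 4, 16310409 to 16312308) had 1004, 1274 and 815 normalized counts in 0v and 1602, 2003 and 1454 in 4v. The groups did not overlap. The log2 difference was 0.72 ± 0.21 (SE; 95% interval from 0.23 to 1.20; 1.65-fold) and missed the threshold in limma (adjusted p = 0.0619). It lay between 0.56 and 0.88 when each library was left out in turn, and passed under quantile normalization in limma (adjusted p = 0.0486), where 6.6% of all genes were higher in 4v.

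CCR1 reduces feruloyl-CoA to coniferaldehyde, the step that commits carbon to monolignols. *CCR1* (AT1G15950, chromosome 1, 5478603 to 5482180) had 567, 310 and 281 normalized counts in 0v and 329, 433 and 338 in 4v. Here 0v replicate 1 stood above all other libraries, and the other 0v libraries lay below all of 4v. The log2 difference was -0.01 ± 0.28 (SE; 95% interval from -0.67 to 0.64; limma adjusted p = 0.982), an interval that leaves room for a change of moderate size in either direction, and became 0.30 without 0v replicate 1.

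COMT1 methylates the ring of 5-hydroxylated precursors and is needed for syringyl lignin and for sinapate. *COMT1* (AT5G54160, chromosome 5, 21981902 to 21984399) had 1318, 1158 and 657 normalized counts in 0v and 850, 881 and 806 in 4v. As for *C4H*, 0v replicates 1 and 2 were higher than every 4v library, but 0v replicate 3 was lower than all of them. The log2 difference was -0.24 ± 0.26 (SE; limma adjusted p = 0.549). Without 0v replicate 3 it was -0.55 and passed (limma adjusted p = 0.0273), where 8.58% of all genes were lower in 4v. Without 0v replicate 1 it was -0.05 and without 0v replicate 2 it was -0.14, so the value depended on each of the 0v libraries.

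Per kilobase of transcript, the members spanned a wide range of levels. The SDs are over libraries and include shifts that the genes share, such as low values in 0v replicate 3. The order of genes within each library was not compared. In 0v the highest were *COMT1* at 698 ± 230.2 (SD, n = 3), *CCOAOMT1* at 665 ± 149 and *C4H* at 539 ± 120.2 normalized counts per kilobase, with overlapping spreads. *PAL2*, *CCR1*, *PAL1* and *4CL1* followed at 279, 264, 208 and 181, again with overlapping spreads. *4CL2* at 56.1 ± 21.2 and *PAL4* at 48.2 ± 12.4 were alike within their spread, and *4CL3* was lowest at 8.68 ± 4.42. In 4v *CCOAOMT1* stood apart at 1088 ± 183, above *COMT1* at 565 ± 25.2. *C4H* at 435 and *PAL2* at 414 overlapped, as did *PAL1* at 325 with *CCR1* at 251, and *CCR1* with *4CL1* at 219. *4CL2* at 108 ± 16.5 now lay above *PAL4* at 41.7 ± 8.14, and *4CL3* remained lowest at 20.8 ± 4.32.

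A feature shared by all 10 members was a low value in 0v replicate 3. This library was the lowest of the 0v libraries for 10 of 10 members, beside 33.3% of all genes tested, and the lowest of all 6 libraries for 8 of them, beside 17.97%. The exceptions were *PAL4* and *C4H*. On the log2 scale 0v replicate 3 differed from the mean of the other 0v libraries by -1.35 in *PAL1*, -1.18 in *4CL3* and -0.99 in *PAL2*, and by -0.47 in *CCOAOMT1*, the smallest deviation. The median over members was -0.62, beside 0.06 over all genes tested, of which the middle 80% lay between -0.77 and 0.95.

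**Figure D3:**
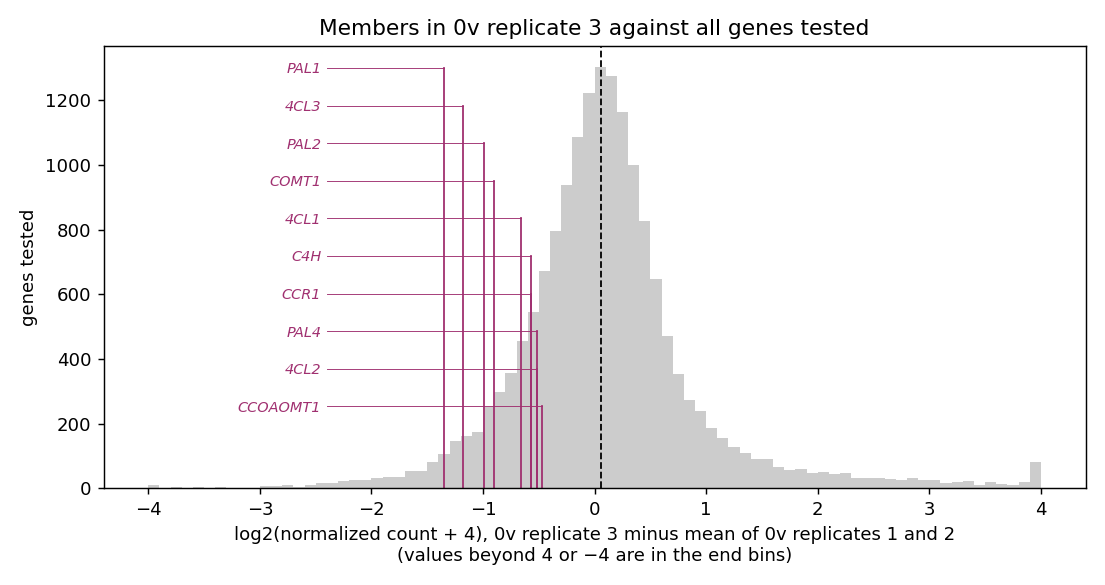
Histogram of the log2 difference between 0v replicate 3 and the mean of the other 0v libraries (horizontal axis) over all genes tested (vertical axis, number of genes). The dashed line is the median of 0.06, and the vertical lines mark the 10 members, which all lie below it, between -1.35 and -0.47.

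The 2 deep libraries and the 4 shallow ones accordingly gave different sizes for the members. Between the deep libraries, 4v replicate 2 minus 0v replicate 3, the median log2 difference over the members was 1.05, whereas among the 4 shallow libraries it was 0.13. Over all genes tested the corresponding medians were 0.03 and 0.04. For *PAL1* the deep libraries differed by 1.85 and the shallow ones by 0.21, and for *CCOAOMT1* by 1.29 and 0.43. *C4H* and *COMT1* changed sign, from 0.20 and 0.42 in the deep libraries to -0.53 and -0.58 in the shallow ones. With every library thinned to the read total of the shallowest, the log2 differences over all 6 libraries were 0.73 for *PAL1*, 0.63 for *PAL2* and 0.80 for *CCOAOMT1*, close to those with all reads. With a single deep library in each group, no test was possible between them.

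**Figure D4:**
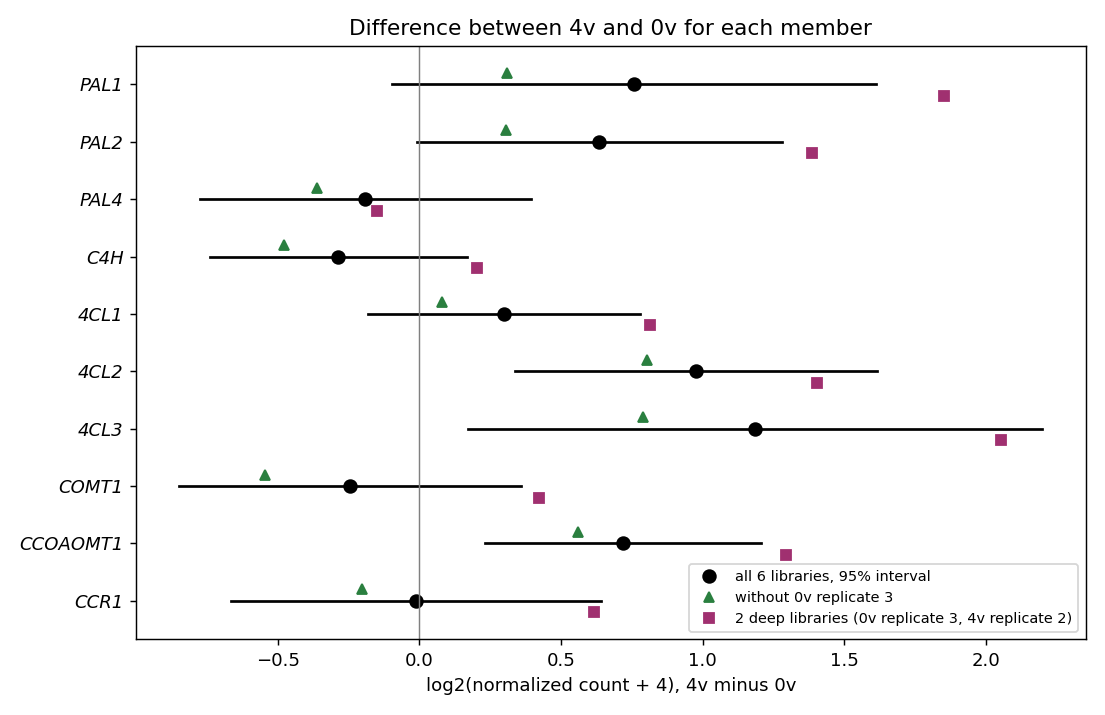
Log2 difference between 4v and 0v (horizontal axis) for each member, over all 6 libraries with its 95% interval (black), without 0v replicate 3 (green triangles) and between the 2 deep libraries (purple squares). The difference without 0v replicate 3 lies below the black point for every member, and the intervals of *4CL2*, *4CL3* and *CCOAOMT1* lie above 0.

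The other enzymes of monolignol synthesis held 2 genes that rose and none that fell among 14 tested, beside 6.46% and 6.99% of all genes. The median log2 difference over this list was 0.44, with 0.52 between the deep libraries and -0.04 among the shallow ones. Cinnamyl alcohol dehydrogenase (CAD) makes the monolignols in the last step, and CAD5 is one of its main lignin forms. *CAD5* had 167, 232 and 185 normalized counts in 0v and 405, 547 and 398 in 4v, a log2 difference of 1.19 ± 0.19 (SE; limma adjusted p = 0.0124). It passed whichever library was left out, and 0v replicate 3 lay between the other 0v libraries. *CAD9*, a related gene, rose by 0.92 ± 0.24 on the log2 scale (limma adjusted p = 0.0479) but passed in only 1 of the 6 analyses without a library. It also missed the threshold with a pseudocount of 1, no filter, thinned reads, edgeR (adjusted p = 0.0550) and eBayes without trend (limma adjusted p = 0.0834). In the shallow libraries alone it did not pass either (limma adjusted p = 0.0550). With quantile normalization, TMM scaling, limma-voom and DESeq2 it passed. *CCR2*, the paralog of *CCR1* known for its response to pathogens, had no overlap between groups and a log2 difference of 0.67 ± 0.26 (SE; limma adjusted p = 0.132). Without overlap, 6 genes of this list were higher in 4v and 2 were lower, beside 20.5% and 18.7% of all genes. The 2 lower were *ATR1* (log2 difference -0.56, limma adjusted p = 0.126) and *ATR2* (-0.50, limma adjusted p = 0.05004, just over the threshold).

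Of 6 tested genes of lignin polymerization, none rose and 1 fell, beside 6.46% and 6.99% of all genes. Their median log2 difference was -0.51. *PRX71*, a wall peroxidase, fell by 1.58 on the log2 scale from 826, 690.4 and 1011 normalized counts in 0v to 183, 453 and 253 in 4v (limma adjusted p = 0.0237). This call, the list's single one, held in 3 of the 6 analyses without a library, with adjusted p up to 0.0828 (without 4v replicate 3). The laccase genes *LAC4* and *LAC17*, which couple monolignols in stems, stayed under the filter, with no more than 33 reads in any library.

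Among the regulators of the pathway, 1 gene rose and 4 fell of 15 tested, beside 6.46% and 6.99% of all genes. KFB01, KFB20 and KFB50 are F-box proteins that bind PAL and mark it for degradation. *KFB01* had 522, 326 and 600.2 normalized counts in 0v and 140.1, 116 and 122 in 4v, a log2 difference of -1.86 ± 0.24 (SE; limma adjusted p = 0.00634). *KFB50* had 2113, 1213 and 2252 in 0v and 423, 532 and 721 in 4v, and *KFB20* 2297, 1123 and 1779 in 0v and 579, 406 and 735 in 4v. They fell by 1.71 and 1.57 on the log2 scale (limma adjusted p = 0.0138 and 0.0213). *KFB01* passed whichever library was left out, *KFB50* in 5 of 6 such analyses (not without 4v replicate 1) and *KFB20* in 3 of 6 (adjusted p up to 0.0753, without 4v replicate 1). In the shallow libraries alone *KFB50* and *KFB20* did not pass (adjusted p = 0.0508 and 0.0719). On the log2 scale 0v replicate 3 lay above the mean of the other 0v libraries by 0.54 in *KFB01*, 0.49 in *KFB50* and 0.15 in *KFB20*. Without 0v replicate 3 their log2 differences were smaller in size, at -1.69, -1.55 and -1.52. Transcripts of the proteins that remove PAL were thus lower in 4v, while those of *PAL1* and *PAL2* did not pass. PAL protein and enzyme activity were not measured.

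The MYB regulators went both ways. *MYB20*, an activator of lignin genes, fell by 2.18 on the log2 scale (limma adjusted p = 0.0269). Its normalized counts were 64.9, 38.7 and 30.8 in 0v and 3.05, 6.08 and 11.4 in 4v. They rest on 19, 12 and 117 reads in 0v and on 1, 30 and 4 reads in 4v. *MYB15*, linked to lignin made in defence and to the cold response, had 0, 0 and 1.84 normalized counts in 0v and 134, 27.4 and 19.9 in 4v. It was higher in every 4v library (log2 difference 3.37 ± 0.74, SE; limma adjusted p = 0.0285), a size that depends on the pseudocount because the 0v libraries are at or near 0. *MYB15* passed in 1 of the 5 analyses without a library in which it met the filter, and *MYB20* in 2 of 6, with adjusted p up to 0.0747 and 0.0946. In the shallow libraries alone neither passed (adjusted p = 0.0693 and 0.0754), and *MYB15* was also lost with a pseudocount of 16 (adjusted p = 0.0532) and with limma-voom (adjusted p = 0.0738).

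Upstream of the members, 19 genes of the shikimate pathway and phenylalanine synthesis were tested, with a median of 0.12. Of these, 2 rose and 2 fell, beside 6.46% and 6.99% of all genes. *DHS1* and *DHS2*, which encode the enzyme of the first shikimate step, fell by 0.90 and 0.74 on the log2 scale (limma adjusted p = 0.0280 and 0.0334). *CS*, for chorismate synthase, rose by 0.63 and *ADT5*, for an arogenate dehydratase that makes phenylalanine, by 0.94 (limma adjusted p = 0.0439 and 0.0432).  *ADT5* passed in none of the 6 analyses without a library, *CS* in 1, and *DHS1* and *DHS2* in 2 each.

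Downstream, all 8 flavonoid enzymes tested had higher means in 4v, as did 8846 of all 16771 genes tested. Their median log2 difference was 1.42, but 3.04 between the deep libraries and 0.47 among the shallow ones, and *LDOX* had reads in 4v replicate 2 alone. Of the 8, 1 gene passed as higher in 4v, beside 6.46% of all genes. *CHI*, for chalcone isomerase, had a log2 difference of 1.36 (limma adjusted p = 0.0421), and passed in 2 of the 6 analyses without a library (adjusted p up to 0.127, without 4v replicate 3) and not with eBayes without trend (0.0692), thinned reads (0.0650) or the shallow libraries alone (0.0896). 0v replicate 3 was the lowest of all libraries for 7 of these 8 genes, with a median log2 difference from the other 0v libraries of -1.94, in the same direction as the phenylpropanoid members. In sinapate ester synthesis 1 gene rose and 1 fell of 6 tested, beside 6.46% and 6.99% of all genes. *UGT84A2*, for the enzyme that makes sinapoylglucose, had 95.6, 71.0 and 51.8 normalized counts in 0v and 241, 210 and 221 in 4v (log2 difference 1.61 ± 0.24, SE; limma adjusted p = 0.00907). *SNG1*, for the enzyme that turns sinapoylglucose into sinapoylmalate, went from 2741, 2287 and 1475 to 603, 391 and 565 (log2 difference -2.03 ± 0.27, SE; limma adjusted p = 0.00693). Both passed whichever library was left out. Of 4 coumarin genes tested, 1 rose and none fell, beside the same shares of all genes. *F6'H1*, for the hydroxylase that leads to scopoletin, rose by 1.36 on the log2 scale (limma adjusted p = 0.0203). It passed in 2 of the 6 analyses without a library, with adjusted p up to 0.0724 (without 4v replicate 1).

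**Figure D5:**
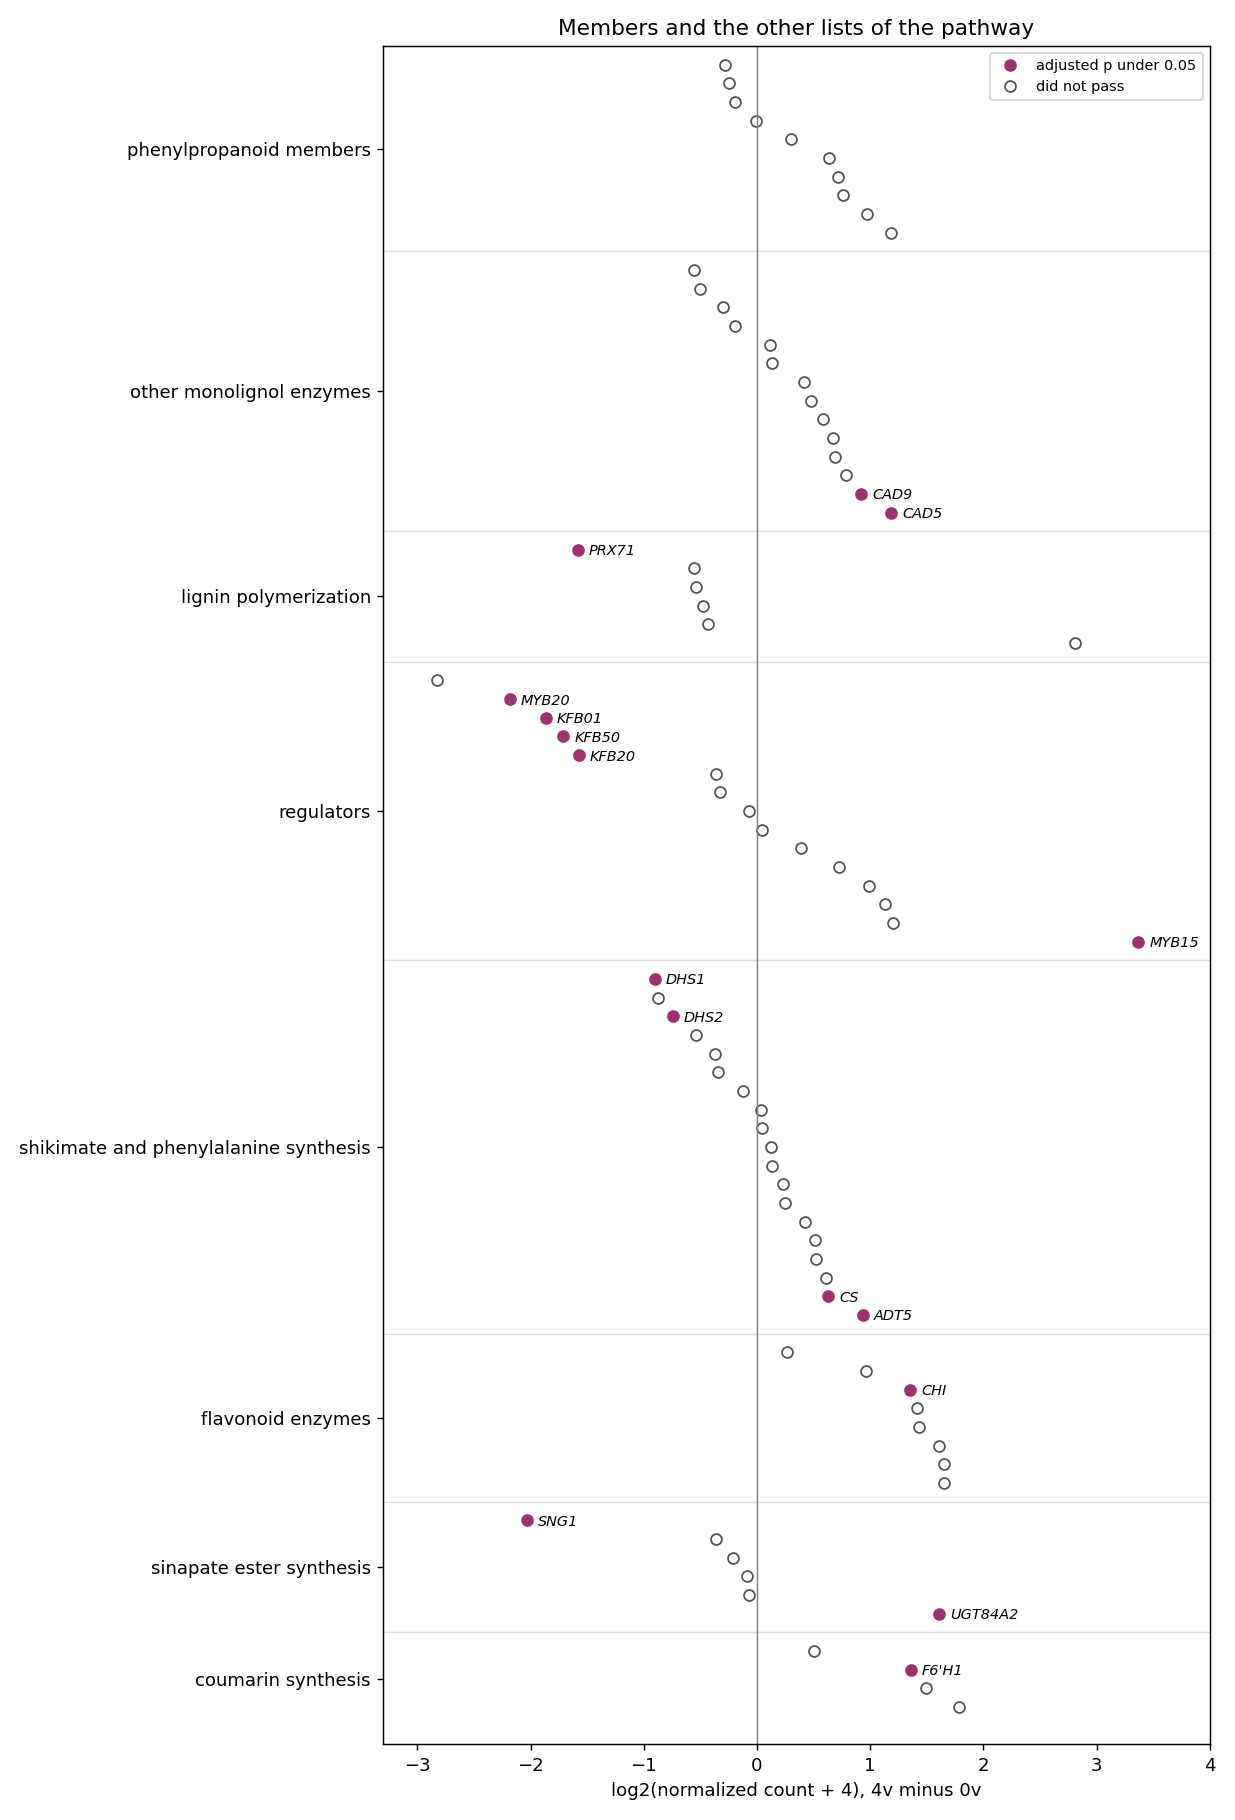
Log2 difference between 4v and 0v (horizontal axis) of each tested gene, 1 row per gene, grouped by list. Filled points passed limma at an adjusted p under 0.05 and are named, and open points did not. All 10 members are open, and the named genes include *CAD5* at 1.19, *KFB01* at -1.86 and *SNG1* at -2.03.

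Lignin is laid down in xylem and in the root endodermis, so markers of these tissues were set beside the members. Of 11 xylem and secondary wall markers, 6 were in the table and 4 were tested, and none passed in limma or had an unadjusted p under 0.05. The smallest p was that of the xylem peptidase gene *XCP2* (log2 difference -1.09; limma adjusted p = 0.160). Their summed normalized counts ranged from 78.4 to 93.6 in 0v and from 21.3 to 51.8 in 4v. Of 6 endodermis markers none passed, although 3 had an unadjusted p under 0.05. The smallest was that of the Casparian strip gene *CASP2* (log2 difference -1.43, limma adjusted p = 0.0598). *CASP1*, *CASP2* and *CASP4* were lower in 4v without overlap, beside 18.7% of all genes. *SCR* was higher without overlap (log2 difference 0.41, limma adjusted p = 0.161), beside 20.5%. The sums over all 6 markers, which mix these directions, ranged from 403 to 619 in 0v and from 349 to 490.3 in 4v. The table held 5 root markers, of which 1 was tested. That gene, *PYK10*, encodes an abundant root beta-glucosidase, and fell by 1.39 on the log2 scale (limma adjusted p = 0.0202). The summed root markers ranged from 13486 to 19512 in 0v and from 4968 to 7802 in 4v. *PYK10* alone ranged from 13468 to 19488 and from 4942 to 7771, so the sums repeat this gene. The untested markers had low values and went both ways. Mean normalized counts in 0v and 4v were 4.89 and 8.25 for *PLT1*, and 5.83 and 8.11 for *COBL9*. They were 8.39 and 3.85 for *RHD6*, and 10.04 and 7.30 for *EXPA7*. *PLT1* had 0 reads in 0v replicate 1, and *RHD6* had 0 reads in 4v replicate 1. Of 4 leaf markers, *CA1* fell (limma adjusted p = 0.0140) and the others did not pass, with sums from 239685 to 435774 in 0v and from 265306 to 528009 in 4v. Root and leaf markers were thus both present in the libraries. In 0v replicate 3 all 4 leaf markers and *PYK10* were also at their lowest level of the 0v libraries. The part of these tissue shares, and of depth, in the members' values was not tested.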

How the data were processed

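RNA was sequenced from 3 libraries each of 0v and 4v wild-type seedlings. The authors prepared polyA-selected libraries with the Illumina TruSeq mRNA kit, quantified reads with Kallisto against TAIR10 and processed counts with DESeq2. Their versions are not given in the sources used here. The signal that the authors deposited per gene and library is a read count scaled by that library's size factor. Low values are whole multiples of the worth of 1 read in each library, and 100% of values came out whole within 0.05 of a read plus 0.0001 per read. Because this tolerance grows with the read count, the check cannot fail for very abundant genes and does not test them. The edgeR test on the recovered reads called 946 genes as higher and 1202 as lower. Deposited columns with the authors' own log2 fold changes and p-values were not used, nor were 20 columns that carry no sample name. The table held 18369 genes, and 1 of them, with values shifted out of their columns, was excluded.

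Groups came from the treatment labels. The test was limma 3.58.1 (R 4.3.3; eBayes with trend) on log2(normalized count + 4), two-sided and called at an adjusted p under 0.05. A log2 difference is 4v minus 0v on this scale and understates changes of low genes. Ratios of members were compared by an exact permutation test over libraries. The alternatives tried were a pseudocount of 1 or 16, a mean filter at 50 or none, a replicate block, quantile and TMM scaling, eBayes without trend, limma-voom, edgeR 4.0.16, DESeq2 1.42.0, thinned reads, the shallow libraries alone, and leaving out each library. The limma script was tested on simulated data.

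The members and the other gene lists were chosen with earlier results of these data known. All members are named. From each other list, up to 4 genes with the smallest adjusted p that passed, up to 2 that passed in the other direction and the paralogs of members are named. *LAC4* and *LAC17*, the root markers *PLT1*, *RHD6*, *COBL9* and *EXPA7*, and the endodermis markers *CASP1*, *CASP4* and *SCR* were named after their values were seen. So were *ATR1* and *ATR2*. Coordinates are those of the deposited table. In the RefSeq annotation of TAIR10.1, 18307 genes were matched and 18306 had identical coordinates, and windows before gene starts and transcript lengths (the longest transcript of a gene) were read from it. No source used here states whether counting used strand.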

Additional observations from a re-analysis of the deposited data

How the results depend on the processing

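Depth limits the low genes, since *4CL3* rests on 6 to 18 reads in the shallow libraries. None of the members passed in limma, but the count of members higher in 4v was 1 with a filter at a mean of 50 (*4CL2*), 1 with quantile normalization (*CCOAOMT1*), 2 with DESeq2, 3 with limma-voom and 0 to 1 when leaving out each library. The count lower in 4v was 0 to 1 (*COMT1* without 0v replicate 3). Over all genes the counts were 1083 higher and 1172 lower. Leaving out a library gave 260 to 1521 higher and 400 to 1440 lower, the lowest without 4v replicate 1 and the highest without 0v replicate 3, and limma-voom gave 2498 and 2318. In the other pathway lists 16 genes passed, and leaving out a library gave 4 to 19. The numbers did not pair the samples (correlations of same-numbered deviations 0.07, -0.13 and -0.13), and a replicate block gave 481 higher and 567 lower genes and lost 9 of those 16 calls (*CAD9*, *PRX71*, *MYB20*, *MYB15*, *DHS1*, *DHS2*, *ADT5*, *CS* and *CHI*). No member was called with or without it. *CCR1* had a log2 difference of 0.0439 with quantile normalization, 0.0451 with limma-voom, 0.0726 with thinned reads, and -0.20 to 0.30 without a library. *PAL3* reached 0.0558 with limma-voom and ranged from -0.40 to 0.0590 without a library, and *4CL5* was -0.0746 in the shallow libraries and ranged from -0.46 to 1.64 without a library. With a pseudocount of 16 the difference in the log2 ratio of *4CL3* to *4CL1* was 0.54 in place of 0.89. For single genes without a library, 117 values kept direction and side of the threshold, 47 no longer passed, 2 came to pass and 7 changed sign. Under the other settings 326 values kept their direction and side of the threshold, 33 no longer passed, 8 came to pass and 5 changed sign. The cause of these changes was not tested.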

Other observations

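Several regulators outside the rule for named genes, picked after their values were seen, lay close to the threshold. MYB4, MYB7 and MYB32 are known repressors of phenylpropanoid genes. *MYB4* had 68.3, 90.3 and 67.1 normalized counts in 0v and 131, 137 and 111 in 4v, a log2 difference of 0.72 ± 0.20 (SE; limma adjusted p = 0.0575). *MYB7* differed by 0.99 ± 0.28 (limma adjusted p = 0.0570) and *MYB32* by 1.13 ± 0.35 (limma adjusted p = 0.0741). None of the 3 overlapped between the groups, beside 20.5% of all genes higher without overlap. *MYB3*, listed with these 3 among the regulators, overlapped and had a lower mean in 4v (log2 difference -0.33, limma adjusted p = 0.643). *KFB39*, another F-box gene of the group that removes PAL, had 567, 242 and 152 normalized counts in 0v and 60.9, 4.26 and 111 in 4v, without overlap and without passing (limma adjusted p = 0.0957). The wall peroxidase gene *PRX52* rested on 2 reads at most in any 0v library and on 7, 569 and 4 reads in 4v (limma adjusted p = 0.0662).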
